A study of Mus musculus with 24 samples.

Results

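The effect of irradiation on transcript levels was examined in WT myeloid cells, in the Input libraries only (RNA sequenced without the m6A antibody step). The 3 WT IR Inputs were set against the 3 WT Ctrl Inputs, 6 of the 24 libraries of the series. Every gene with at least 10 counts in at least 3 of these 6 libraries was tested, which left 15357 of the 54446 genes counted. CD11b+ cells (CD11b is the integrin chain of monocytes, macrophages, neutrophils and part of the dendritic cells) had been selected from MC38 tumors, a mouse colon carcinoma line transplanted under the skin of C57BL/6J mice. Both groups were WT, that is Ythdf2 fl/fl mice without Cre, so that the floxed alleles were shared by Ctrl and IR. WT IR tumors received 20 Gy in 1 local dose and cells were taken 3 days later, whereas WT Ctrl tumors were not irradiated. The study used male and female mice aged 8 to 10 weeks in its experiments and pooled 5 mice for each replicate. Xist, an RNA of female cells, had at most 1 count in each of the 24 libraries, and the sex of the pools was not tested. The methods of the study call the replicates technical in 1 place and biological in another. SEs and p-values below therefore measure the spread between these libraries, which may be technical. The growth protocol names tumors or blood as the source of cells, while every sample label names MC38 tumors. The Inputs labelled cKO (Lyz2-Cre and Ythdf2 fl/fl, a deletion aimed at cells that express Lyz2) entered only the tests of a difference between genotypes and an alternative fit.

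Ionizing radiation breaks DNA, and the kinases ATM and ATR pass that signal to the transcription factor p53, which induces arrest, repair and death genes. Arrested cells shut down genes for DNA synthesis, which E2F factors drive, and genes for mitosis, whose promoters often carry CHR elements and CCAAT boxes. Tumor myeloid cells are replaced from bone marrow, where granulocyte precursors make the proteins of primary granules (Mpo, Elane) and later those of secondary granules (Ltf, Ngp, Camp), and where monocytes leave through the receptor Ccr2 to become macrophages in tissue.

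The libraries held 71.94M to 76.8M gene counts in WT Ctrl and 65.96M to 69.8M in WT IR. Mitochondrial genes took 4.61 to 4.84% of the counts in WT Ctrl and 6.13 to 7.25% in WT IR, and reads outside annotated genes made up 5.21 to 5.30% and 5.91 to 6.80% of reads in genes, outside genes and ambiguous between genes. Across genes, log2 levels correlated at 0.989 to 0.992 within a group and at 0.979 to 0.981 between groups. The pan-myeloid markers, all 13 of which were tested, summed to 32839 to 33329 CPM in WT Ctrl and 31114 to 32770.0 in WT IR (CPM, counts scaled to a library of 1M). Sums of lists, here and below, were scaled to total counts without the scaling factors used for single genes. Differences between such sums were not tested. Of the 13 markers 6 fell, led by Csf1r, the receptor of the macrophage growth factor (−0.32, SE 0.03), and 2 rose, where 14.3% of all tested genes fell and 12.6% rose (edgeR, adjusted p under 0.05). The number lower was 3 without Ctrl replicate 1, 2 or 3 and 3 without IR replicate 3, and the number higher 1 without Ctrl replicate 1, 2 or 3 and 1 without IR replicate 3. Itgam, the gene of CD11b itself, stood at 374, 386 and 386 CPM in WT Ctrl and 411, 411 and 399 in WT IR, and its log2 change of 0.09 (SE 0.04, edgeR adjusted p 0.0864) did not pass the threshold. Itgam passed by edgeR without IR replicate 1 (adjusted p 0.0487), with a minimum of 50 counts (0.0423) and with all 12 Inputs in the fit (0.0242). Genes that define lymphocytes or the tumor line were at or near 0. Cd3e had 0 counts in all 6 libraries and Krt8 at most 1, the T cell list summed to 13.2 to 14.5 CPM in WT Ctrl and 13.6 to 15.8 in WT IR (7 of 16 genes tested, none called), and the epithelial and MC38 list to 7.29 to 9.13 CPM in WT Ctrl and 8.41 to 8.97 in WT IR (5 of 19 tested).

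Irradiation moved many genes, most of them by little. In WT IR 2189 genes were lower and 1931 higher (edgeR quasi-likelihood test with a limit of 0.05 on adjusted p), together 26.8% of the genes tested, 14.3% of them lower and 12.6% higher. The median size of a called change was 0.37 on the log2 scale, and 63.0% of the called genes moved by under 0.5. At least 2-fold changes were called for 655 genes, of which 436 fell and 219 rose. The median over all genes was 0.003. Among the 12 largest rises of genes above 5 CPM in WT IR were Prrg4 (1.66), Inka2 (1.52), the cytokine Lif (1.21), the gap junction gene Gja1 (1.14) and Gm15987 (1.19), an RNA annotated as antisense. The number of calls depended on 1 library, since 5757 genes were called without IR replicate 1, whereas leaving out any of the other 5 libraries lowered the number, down to 2927. The common coefficient of variation between replicates was 4.05% in WT Ctrl and 8.78% in WT IR.

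**Figure D1:**
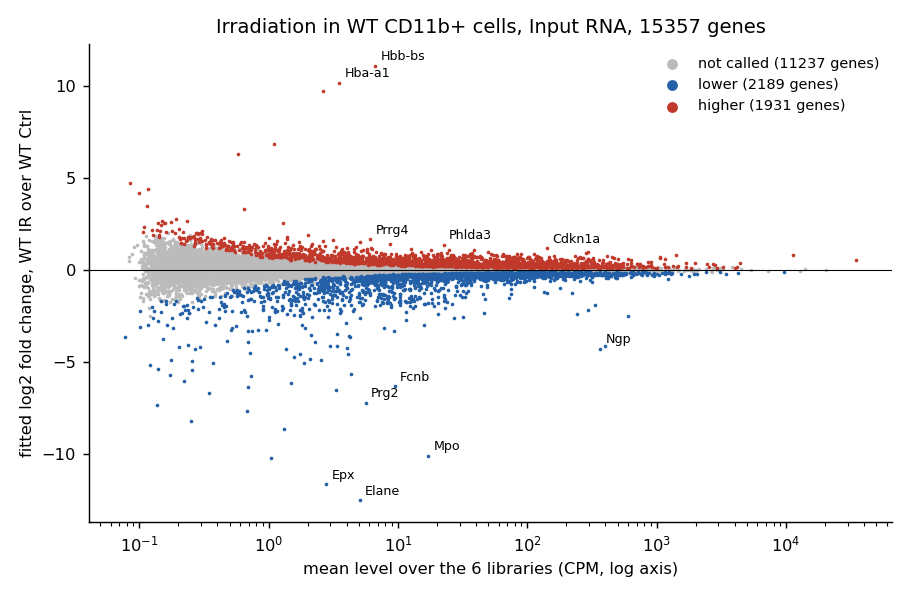
Log2 fold change of WT IR over WT Ctrl for each of the 15357 tested genes (vertical axis) against its mean level in CPM over the 6 libraries (log axis), with the 2189 lower genes and the 1931 higher genes in color. Most called genes lie within 0.5 of the zero line, while granule genes reach far below it and globin genes far above it. Fitted values of genes with 0 or few counts in 1 group depend on the prior count of the fit.

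Genes that p53 induces were mostly higher 3 days after irradiation, where 12.6% of all tested genes rose and 14.3% fell. Of 42 listed p53 targets, all tested, 29 rose and 2 fell, and their median change was 0.47 on the log2 scale against 0.003 over all genes. Cdkn1a (ENSMUSG00000023067.14, GRCm38 chromosome 17, positions 29090976 to 29100727, plus strand), the inhibitor of cyclin-dependent kinases that holds cells in G1, stood at 86.9, 85.8 and 86.1 CPM in WT Ctrl and 193, 197 and 198 in WT IR. No IR library came near a Ctrl library, and the rise was 1.18 (SE 0.04, edgeR adjusted p 9.02e-10). Mdm2, the ubiquitin ligase that limits p53, stood at 139, 133 and 136 CPM in WT Ctrl and 190.4, 209 and 198 in WT IR, a rise of 0.55 (SE 0.04, edgeR adjusted p 1.94e-06) with no overlap of the groups. Feedback and arrest genes also included Phlda3, an inhibitor of AKT signalling that rose by 1.36 (SE 0.09), Ccng1, a cyclin that rose by 0.93 (SE 0.06), and Trp53inp1, a p53 cofactor that rose by 0.88 (SE 0.04).

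The largest rises of the list belonged to weakly expressed genes. They were Ak1 (adenylate kinase), up by 1.91 (SE 0.16), Eda2r (a receptor of the TNF receptor family), up by 1.76 (SE 0.21), Zfp365, up by 1.72 (SE 0.28), and Ddit4l (an inhibitor of mTOR), up by 1.64 (SE 0.14). Ak1 stood at 0.906, 0.842 and 0.806 CPM in WT Ctrl and 3.47, 3.14 and 3.01 in WT IR. Death genes of the list were Bbc3 (PUMA), at 14.7, 16.01 and 14.0 CPM in WT Ctrl and 28.1, 21.2 and 25.1 in WT IR, and Pmaip1 (NOXA), at 75.6, 73.3 and 73.7 CPM in WT Ctrl and 111, 102 and 109 in WT IR. In each of the 2 the groups did not overlap, with rises of 0.73 (SE 0.10) and 0.53 (SE 0.05). Tnfrsf10b, the mouse TRAIL receptor, rose by 0.86 (SE 0.09). Sesn2, a stress-induced brake on mTORC1, rose by 0.65 (SE 0.05), Ephx1, an epoxide hydrolase, by 0.88 (SE 0.05), and Cd80, a costimulatory ligand for T cells, by 0.83 (SE 0.10). The members that fell were Ckap2, a spindle protein that is also a cell cycle gene (−1.45), and Sesn1 (−0.28). Bax, the apoptotic effector, missed the threshold at 0.18 (SE 0.07, edgeR adjusted p 0.0599) although its 3 IR libraries (35.6, 30.1 and 32.4 CPM) lay above the 3 Ctrl libraries (29.0, 28.3 and 29.1 CPM), and it passed without IR replicate 2 (adjusted p 0.0109) and in DESeq2 (0.0393). Bax also passed by edgeR with a minimum of 50 counts (0.039), without a count minimum (0.048) and with all 12 Inputs in the fit (0.0256). Trp53cor1, a lincRNA that is a neighbor of Cdkn1a and known as lincRNA-p21, was not in the list but was among the 12 largest rises, from 3.11, 3.02 and 2.3 CPM to 7.16, 7.03 and 5.88, by 1.25 (SE 0.14, edgeR adjusted p 2.52e-05).

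A p53 site core was searched in promoters of the list, taken from RefSeq as 250 bases before to 50 after the transcription start (GRCm38.p6). Of the list, 34 genes had a promoter in the table and 7 (20.6%) held a match on either strand, against 5.54% of 10456 promoters of tested genes and 7.34% of all 27025. A match is a description of letters and not a bound site. The promoters of Cdkn1a, Bbc3 and Zfp365 are shown 5′ to 3′ because these genes rose and hold a match, which is in capitals. They lie at chr17:29090729-29091028 on the plus strand, chr7:16309333-16309632 on the plus strand and chr10:67912613-67912912 on the minus strand, and their matches begin 48, 94 and 60 bases before the start. RefSeq lists 2 starts for Cdkn1a and 3 for Bbc3, of which the first was used.
Cdkn1a: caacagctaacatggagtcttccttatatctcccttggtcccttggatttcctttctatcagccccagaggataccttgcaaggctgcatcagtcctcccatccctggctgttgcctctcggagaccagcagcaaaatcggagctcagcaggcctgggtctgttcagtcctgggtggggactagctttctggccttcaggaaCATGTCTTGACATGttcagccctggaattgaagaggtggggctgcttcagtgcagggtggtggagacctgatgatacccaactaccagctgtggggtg
Bbc3: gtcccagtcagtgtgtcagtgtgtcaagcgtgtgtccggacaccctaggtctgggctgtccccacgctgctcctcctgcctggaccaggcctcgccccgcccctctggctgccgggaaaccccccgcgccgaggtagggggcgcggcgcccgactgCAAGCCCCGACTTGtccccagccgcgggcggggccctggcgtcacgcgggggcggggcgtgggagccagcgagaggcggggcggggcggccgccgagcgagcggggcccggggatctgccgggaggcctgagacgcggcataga
Zfp365: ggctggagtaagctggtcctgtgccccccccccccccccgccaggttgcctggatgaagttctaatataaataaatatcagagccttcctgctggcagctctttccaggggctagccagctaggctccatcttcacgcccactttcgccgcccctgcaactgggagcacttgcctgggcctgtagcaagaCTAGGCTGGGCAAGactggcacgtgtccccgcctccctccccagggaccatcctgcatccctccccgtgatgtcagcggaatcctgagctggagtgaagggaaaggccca

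Mitosis genes fell as a block, where 14.3% of all tested genes fell. Of 40 listed genes 39 fell and 0 rose, with a median of −1.49. The member that did not pass was Pttg1, the securin, at −0.26 (SE 0.10, edgeR adjusted p 0.0887). Pttg1 passed by edgeR without IR replicate 1 (adjusted p 0.0206) and with all 12 Inputs in the fit (0.0364). Birc5 (survivin), which serves in the chromosomal passenger complex, stood at 21.7, 21.7 and 21.3 CPM in WT Ctrl and 5.87, 5.47 and 5.49 in WT IR. No IR library came near a Ctrl library, and the log2 change was −1.94 (SE 0.07, edgeR adjusted p 2.04e-09), or 3.84-fold. Ccnb2, the cyclin that activates Cdk1, fell from 20.0, 20.0 and 19.2 CPM to 5.06, 4.43 and 5.98, a change of −1.94 (SE 0.10, edgeR adjusted p 3.35e-08). Plk1, the kinase that drives mitotic entry, fell by 1.89 (SE 0.08) and Cdc20, the activator of the anaphase-promoting complex, fell by 1.88 (SE 0.10). The proliferation marker Mki67 stood at 309, 310.1 and 313 CPM in WT Ctrl and 132, 129 and 126 in WT IR and fell by 1.27 (SE 0.04), and Top2a, the topoisomerase that untangles chromosomes, fell by 1.52 (SE 0.05). Markers of granulocyte precursors, which divide, fell in the same libraries (13 of 19 tested genes of the primary granule list, described below), and their part in the fall of cell cycle genes was not tested.

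Genes of DNA synthesis fell by less. Of 40 genes 35 fell and 1 rose, with a median of −0.67. The helicase loader Cdc6 stood at 4.43, 5.36 and 5.32 CPM in WT Ctrl and 2.06, 1.65 and 2.65 in WT IR and fell by 1.25 (SE 0.17, edgeR adjusted p 1.20e-04). Mcm5, a subunit of the replicative helicase, stood at 47.4, 48.7 and 48.0 CPM in WT Ctrl and 22.8, 21.4 and 21.7 in WT IR and fell by 1.13 (SE 0.05, edgeR adjusted p 1.69e-08). Larger falls were those of Cdc45, which activates that helicase (−1.50, SE 0.16), Rrm2, the subunit of ribonucleotide reductase made in S phase (−1.46, SE 0.09), and Mcm10 (−1.39, SE 0.10). Pcna, the sliding clamp, which is also known as a p53 target, had a smaller change of −0.34 (SE 0.05), from 128, 119 and 129.7 CPM to 95.8, 98.7 and 104. The member that rose was Gins3, by 0.53 (SE 0.07, edgeR adjusted p 7.17e-05), from 16.2, 16.3 and 16.7 CPM to 24.9, 23.8 and 22.1.

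Of 30 genes of break repair and checkpoints, 14 fell, with a median of −0.18, where 14.3% of all tested genes fell and 12.6% rose. Those that fell furthest are known to peak in S phase. They were Clspn, the adaptor of the Chek1 kinase (−1.58, SE 0.07), Chek1 itself (−1.24, SE 0.23) and Fanca (−1.17, SE 0.15). Clspn stood at 18.9, 19.1 and 19.4 CPM in WT Ctrl and 6.52, 6.62 and 6.09 in WT IR. Sensor and signalling genes gave small values that did not pass, with −0.05 for the kinase Atm, −0.06 for Nbn and 0.06 for Trp53bp1, and end-joining genes such as Lig4 (0.14) did not pass either. Atr, at 0.19 (SE 0.07, edgeR adjusted p 0.0492), was the member called higher, and leaving out any library but IR replicate 1 ended that call (adjusted p 0.0604 to 0.191).

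Promoters of the cell cycle genes were searched for a CHR, whose letters are TTTGAA, for the 5 letters that name a CCAAT box, and for an E2F site (TTTCCCGC or TTTGGCGC), on both strands of the same 300-base window. A CHR was found in 24 of 33 mitosis promoters (72.7%), against 12.3% of promoters of tested genes and 18.1% of all. CCAAT was found in 25 of the 33 (75.8%, against 38.8% and 37.9%) and in 21 of 32 replication promoters (65.6%), and an E2F site in 10 of those 32 (31.2%, against 3.08% and 1.63%). Shown 5′ to 3′ are the promoters of Ccnb2, Plk1 and Cdc20, among the 4 largest falls of the mitosis list, with CHR and CCAAT letters in capitals, and those of Cdc6 and Mcm5, with the E2F letters in capitals. They lie at chr9:70421505-70421804 on the minus strand, chr7:122159185-122159484 on the plus strand, chr4:118437294-118437593 on the minus strand, chr11:98907901-98908200 on the plus strand and chr8:75109259-75109558 on the plus strand.
Ccnb2: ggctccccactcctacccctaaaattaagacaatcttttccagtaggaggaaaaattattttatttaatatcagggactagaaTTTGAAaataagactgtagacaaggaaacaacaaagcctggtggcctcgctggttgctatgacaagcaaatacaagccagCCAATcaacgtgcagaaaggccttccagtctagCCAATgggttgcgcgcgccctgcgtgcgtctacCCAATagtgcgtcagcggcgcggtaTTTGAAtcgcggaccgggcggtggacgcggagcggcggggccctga
Plk1: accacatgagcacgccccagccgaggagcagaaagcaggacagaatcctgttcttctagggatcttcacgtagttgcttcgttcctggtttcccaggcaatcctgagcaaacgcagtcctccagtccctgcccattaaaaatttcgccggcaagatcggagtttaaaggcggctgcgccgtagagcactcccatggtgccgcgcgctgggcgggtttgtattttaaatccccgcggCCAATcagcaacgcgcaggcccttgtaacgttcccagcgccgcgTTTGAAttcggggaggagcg
Cdc20: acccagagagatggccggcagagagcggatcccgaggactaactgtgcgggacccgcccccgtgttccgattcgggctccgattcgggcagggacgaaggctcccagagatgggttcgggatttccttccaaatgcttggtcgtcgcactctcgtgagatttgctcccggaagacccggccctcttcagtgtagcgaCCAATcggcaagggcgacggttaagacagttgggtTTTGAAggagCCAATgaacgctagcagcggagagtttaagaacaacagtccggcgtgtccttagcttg
Cdc6: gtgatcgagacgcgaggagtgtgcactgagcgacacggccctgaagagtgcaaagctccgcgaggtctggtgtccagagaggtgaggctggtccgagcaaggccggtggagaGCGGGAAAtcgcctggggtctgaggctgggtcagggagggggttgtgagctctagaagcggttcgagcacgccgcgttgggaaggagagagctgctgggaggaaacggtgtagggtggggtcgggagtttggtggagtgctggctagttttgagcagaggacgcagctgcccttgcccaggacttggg
Mcm5: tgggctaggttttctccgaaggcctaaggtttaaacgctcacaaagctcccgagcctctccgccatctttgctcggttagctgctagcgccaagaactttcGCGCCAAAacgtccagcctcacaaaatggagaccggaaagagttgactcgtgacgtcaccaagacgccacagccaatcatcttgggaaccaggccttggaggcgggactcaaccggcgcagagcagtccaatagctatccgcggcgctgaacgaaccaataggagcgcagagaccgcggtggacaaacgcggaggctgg

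**Figure D2:**
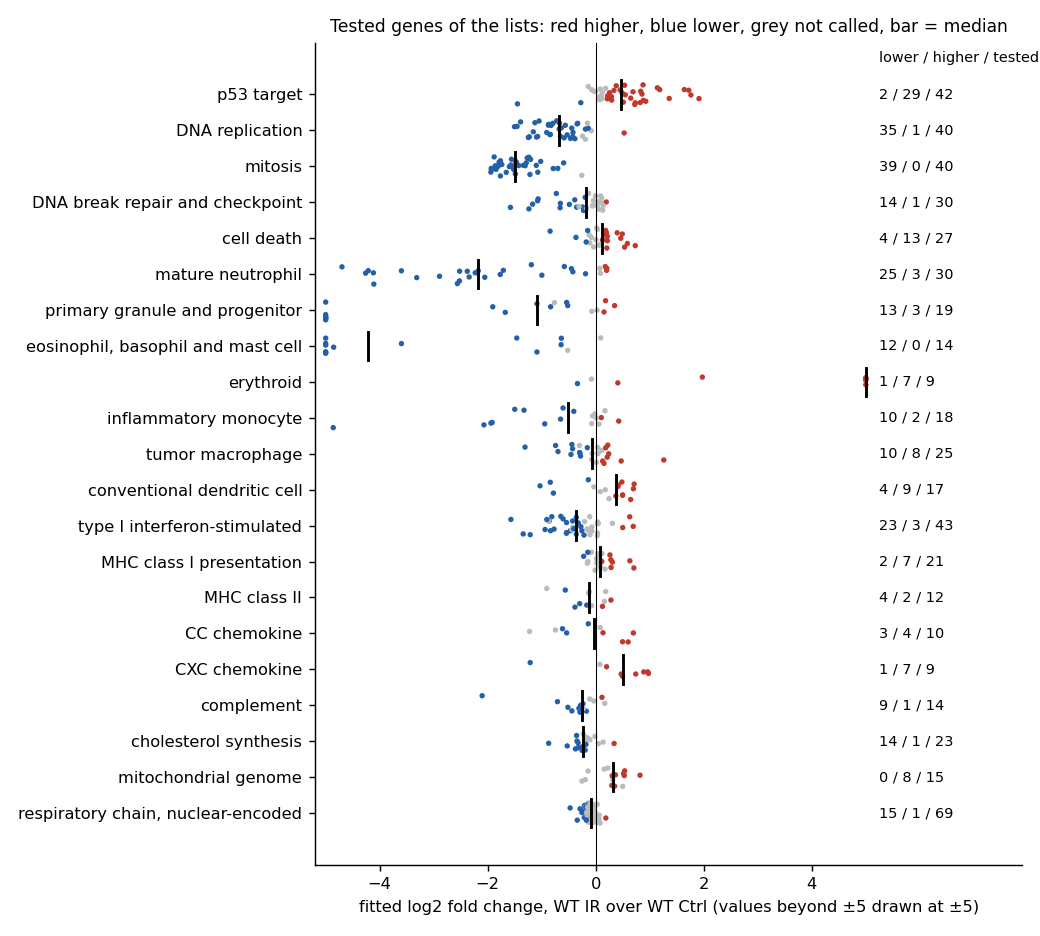
Log2 fold change of WT IR over WT Ctrl (horizontal axis, values beyond 5 in size drawn at 5) for every tested member of 21 gene lists, 1 point per gene, colored by call, with a bar at the median of the list and the numbers lower, higher and tested at the right. The mitosis list lies wholly below zero (median −1.49), p53 targets lie mostly above it (median 0.47), and lists of granulocyte genes reach furthest to the left.

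Cell death genes leaned upward, with 13 of 27 higher and 4 lower (median 0.12), although the number higher was 7 without Ctrl replicate 1. Over all tested genes 12.6% were higher and 14.3% lower. Bbc3 and Pmaip1 are given above. Survival genes rose as well. The inhibitor of apoptosis Birc2 rose by 0.49 (SE 0.05), and Bcl2a1a and Bcl2a1d, paralogs of a BCL2-type survival protein whose reads are hard to assign, by 0.46 (SE 0.05) and 0.40 (SE 0.05). Gsdme, a gasdermin, fell by 0.85 (SE 0.11, edgeR adjusted p 1.20e-04), and Ripk3, the necroptosis kinase, fell by 0.37 (SE 0.06, edgeR adjusted p 6.90e-04). The number lower was 2 without Ctrl replicate 1, 2 or 3 and 2 without IR replicate 3.

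The deepest falls were in genes of granulocytes, where 14.3% of all tested genes fell and 12.6% rose. Of 30 neutrophil markers, all tested, 25 fell and 3 rose, with a median of −2.18, and the markers summed to 5755 to 5958 CPM in WT Ctrl and 2456 to 2699 in WT IR. In bulk RNA, fewer neutrophils and less of these RNAs in each cell cannot be told apart. Some secondary granule genes were among the deepest. Ngp (neutrophilic granule protein, GRCm38 chromosome 9, positions 110419747 to 110423012, plus strand) stood at 698, 687 and 702 CPM in WT Ctrl and 37.8, 35.3 and 35.8 in WT IR, a log2 change of −4.26 (SE 0.04, edgeR adjusted p 6.71e-15), or 19.2-fold. Ltf (lactoferrin) stood at 751, 761 and 754 CPM in WT Ctrl and 45.1, 43.0 and 42.5 in WT IR, a log2 change of −4.12 (SE 0.04, edgeR adjusted p 6.71e-15). Camp, the cathelicidin precursor, fell from 7.61, 7.42 and 7.74 CPM to 0.661, 0.283 and 0.289, a change of −4.21 (SE 0.22). For each of these genes the highest IR library lay far below the lowest Ctrl library.

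Several other neutrophil genes had smaller changes. S100a9, a subunit of calprotectin, stood at 1011, 1019 and 1036 CPM in WT Ctrl and 166, 181 and 188 in WT IR and fell by 2.52 (SE 0.05, edgeR adjusted p 6.10e-12), and its partner S100a8 fell by 2.38 (SE 0.09). Lcn2, the lipocalin that binds siderophores and is also a secondary granule protein, fell by 2.19 (SE 0.05). Ly6g, the surface antigen used to gate neutrophils, fell by 2.23 (SE 0.20), and Cxcr2, the receptor for their chemokines, fell by 1.71 (SE 0.08). Csf3r, the G-CSF receptor, fell by 0.58 (SE 0.05), and Mmp9 fell as well. Stefin genes fell further than the secondary granule genes named, Stfa3 at −4.70 (SE 0.26) and BC100530, another gene of that cluster, at −4.55 (SE 0.19), with the limit that near-identical copies share reads. The members called higher were Acod1, Clec4d and Fpr1, which monocytes and macrophages also express, at 0.18, 0.20 and 0.20. The number of these calls was 1 without Ctrl replicate 1, 0 without Ctrl replicate 2 and 0 without IR replicate 3.

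Primary granule genes of promyelocytes fell to or near 0. Elane, neutrophil elastase, had 2282 counts summed over WT Ctrl and 0 over WT IR, at least 679-fold lower with a floor of 3 counts over the group. Mpo, myeloperoxidase, had 7696 and 6, a ratio of 1144 (95% interval 525 to 3119), the interval covering counting error only. Ms4a3, a marker of granulocyte-monocyte progenitors, had 471 and 0, at least 140.1-fold lower. Prtn3, proteinase 3, had 1487 and 14, a ratio of 94.7 (95% interval 56.3 to 174). Fcnb (ficolin B) stood at 20.1, 18.9 and 16.9 CPM in WT Ctrl and 0.246, 0.268 and 0.188 in WT IR, a log2 change of −6.31 (SE 0.15, edgeR adjusted p 2.56e-11). Elane, Mpo, Ms4a3 and Prtn3 reached the count minimum only in the Ctrl libraries, so that for them being tested nearly fixed the call. Where 14.3% of all tested genes fell, 13 of the 19 tested of 21 listed genes fell (median −1.09). Those included Cebpe and Gfi1, transcription factors of granulocyte maturation, which fell, with changes of −1.91 (SE 0.15) and −1.68 (SE 0.18), and Myb, which fell by 0.54 (SE 0.10). Kit, a stem cell factor receptor also found on mast cells, went the other way, from 17.0, 15.7 and 17.2 CPM to 19.9, 21.99 and 21.5, by 0.35 (SE 0.07, edgeR adjusted p 0.00222). The number higher, 3, was 1 without Ctrl replicate 1 or 2 and 1 without IR replicate 2 or 3.

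Eosinophil, basophil and mast cell genes also fell, several of them to or near 0. Of 14 tested genes of 21 listed, 12 fell, with a median of −4.23, where 14.3% of all tested genes fell. Epx, Prg2, Mcpt8 and Ms4a2, described next, reached the count minimum only in the Ctrl libraries. For these genes being tested nearly fixed the call, and the number and the median depend in part on that filter. The whole list summed to 70.3 to 72.0 CPM in WT Ctrl and 15.2 to 18.2 in WT IR. Epx, eosinophil peroxidase, had 1258 counts over WT Ctrl and 0 over WT IR, at least 374-fold lower. Prg2, the eosinophil major basic protein, had 2522 and 15, a ratio of 150.0 (95% interval 90.8 to 268). The basophil protease Prss34 stood at 8.52, 8.82 and 8.36 CPM in WT Ctrl and 0.353, 0.0149 and 0.145 in WT IR and fell by 5.65 (SE 0.33, edgeR adjusted p 9.26e-08), with IR replicate 1 above the other two. Mcpt8, another basophil protease, had 663 counts over WT Ctrl and 8 over WT IR. Ms4a2, the beta chain of the IgE receptor, fell from 1.25, 1.57 and 1.28 CPM to 0.0154, 0.0149 and 0.0145.

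Monocyte genes fell in part, where 14.3% of all tested genes fell and 12.6% rose. Of 18 markers 10 fell and 2 rose, with a median of −0.51, and the number higher was 1 without Ctrl replicate 1, 2 or 3 and 1 without IR replicate 3. Ccr2, the receptor that brings monocytes out of bone marrow, stood at 145, 144 and 153 CPM in WT Ctrl and 66.6, 85.7 and 77.2 in WT IR and fell by 0.94 (SE 0.07, edgeR adjusted p 1.30e-06). Ly6c2, the surface antigen of inflammatory monocytes, stood at 91.1, 82.4 and 88.9 CPM in WT Ctrl and 49.6, 58.0 and 59.4 in WT IR and fell by 0.65 (SE 0.07, edgeR adjusted p 1.52e-05). Among the larger falls were those of Plac8 (−4.86, SE 0.34), F13a1 (coagulation factor XIII, −1.94, SE 0.08) and Chil3 (a chitinase-like protein that neutrophil precursors also make, −1.92, SE 0.07). Lyz2, which gave most of the counts of this list, stood at 20004, 20619 and 20451 CPM in WT Ctrl and 21176, 19827 and 20478 in WT IR and did not pass (0.01, SE 0.03, edgeR adjusted p 0.846). Vcan (versican) rose by 0.42 (SE 0.05).

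Macrophage genes split. Of 25 tested of 28 listed genes 10 fell and 8 rose, with a median of −0.07. Cx3cr1, the fractalkine receptor, stood at 105, 104 and 109 CPM in WT Ctrl and 40.4, 44.8 and 43.3 in WT IR, a log2 change of −1.31 (SE 0.05, edgeR adjusted p 3.18e-09). The complement C1q genes fell together, C1qa from 66.5, 68.3 and 65.6 CPM to 49.3, 47.4 and 50.9, a change of −0.44 (SE 0.05), C1qb with −0.28 (SE 0.06) and C1qc with −0.29 (SE 0.05). Axl, a receptor for dying cells, fell by 0.46 (SE 0.04) and the transcription factor Maf fell by 0.43 (SE 0.05). Arg1, arginase, rose by 1.26 (SE 0.15) from a low level (1.76, 1.77 and 2.29 CPM in WT Ctrl), Pf4 by 0.47 (SE 0.04) and Gpnmb, a glycoprotein of lysosomes, by 0.18 (SE 0.03). Apoe, at 2367, 2475 and 2324 CPM in WT Ctrl and 2719, 2258 and 2381 in WT IR, did not pass (0.04) and its groups overlapped. The number higher was 4 without Ctrl replicate 1, 3 without Ctrl replicate 2 and 4 without IR replicate 3.

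Dendritic cell genes were more often higher, where 12.6% of all tested genes rose and 14.3% fell. Of 17 tested of 20 listed genes 9 rose and 4 fell, with a median of 0.37, and the list summed to 3984 to 4020.5 CPM in WT Ctrl and 4848 to 4908 in WT IR. Zbtb46, the transcription factor of the conventional lineage, stood at 32.9, 32.8 and 33.6 CPM in WT Ctrl and 54.3, 54.3 and 54.0 in WT IR, a rise of 0.71 (SE 0.05, edgeR adjusted p 3.54e-07). Ccl22, a ligand of Ccr4, stood at 821, 788 and 819 CPM in WT Ctrl and 1231, 1370.0 and 1336 in WT IR, a rise of 0.70 (SE 0.04, edgeR adjusted p 1.67e-07). Ccr7, which guides dendritic cells to lymph nodes, rose by 0.65 (SE 0.04), Irf8 by 0.48 (SE 0.04) and the actin-bundling Fscn1 by 0.42 (SE 0.05). Mgl2 and Clec10a, lectins of another dendritic cell and macrophage subset, fell, with changes of −1.03 (SE 0.07) and −0.84 (SE 0.10). Xcr1, which defines cross-presenting cells, was among the 3 members too low to test.

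Red cell genes appeared in the IR libraries. Of 9 tested of 16 listed erythroid genes 7 were called higher and 1 lower, where 12.6% of all tested genes rose and 14.3% fell. The globin genes named here and Alas2 reached the count minimum only in the IR libraries. For these genes being tested nearly fixed the call, so that the count is no separate result. The whole list summed to 111 to 118 CPM in WT Ctrl and 116 to 128 in WT IR. Hbb-bs, a beta globin, had 1 count summed over WT Ctrl and 2687 over WT IR, a ratio of 3012 (95% interval 540.2 to 119018). Hba-a1, an alpha globin, had 1 and 1407, a ratio of 1577 (95% interval 283 to 62342), and Alas2, the red cell enzyme that starts haem synthesis, stood at 0.0549, 0 and 0 CPM in WT Ctrl and 2.43, 2.14 and 1.97 in WT IR. The 3 IR libraries held similar amounts, 12.7, 11.7 and 15.5 CPM for Hbb-bs. Globin copies are near identical, and reads that aligned to several places were not counted, so that reads of these genes may be lost. Klf1, Gata1 and Epor, genes of red cell precursors, were too low to test. Among platelet genes Ppbp rose by 0.89 (SE 0.07), while Itga2b fell by 1.19 (SE 0.21).

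**Figure D3:**
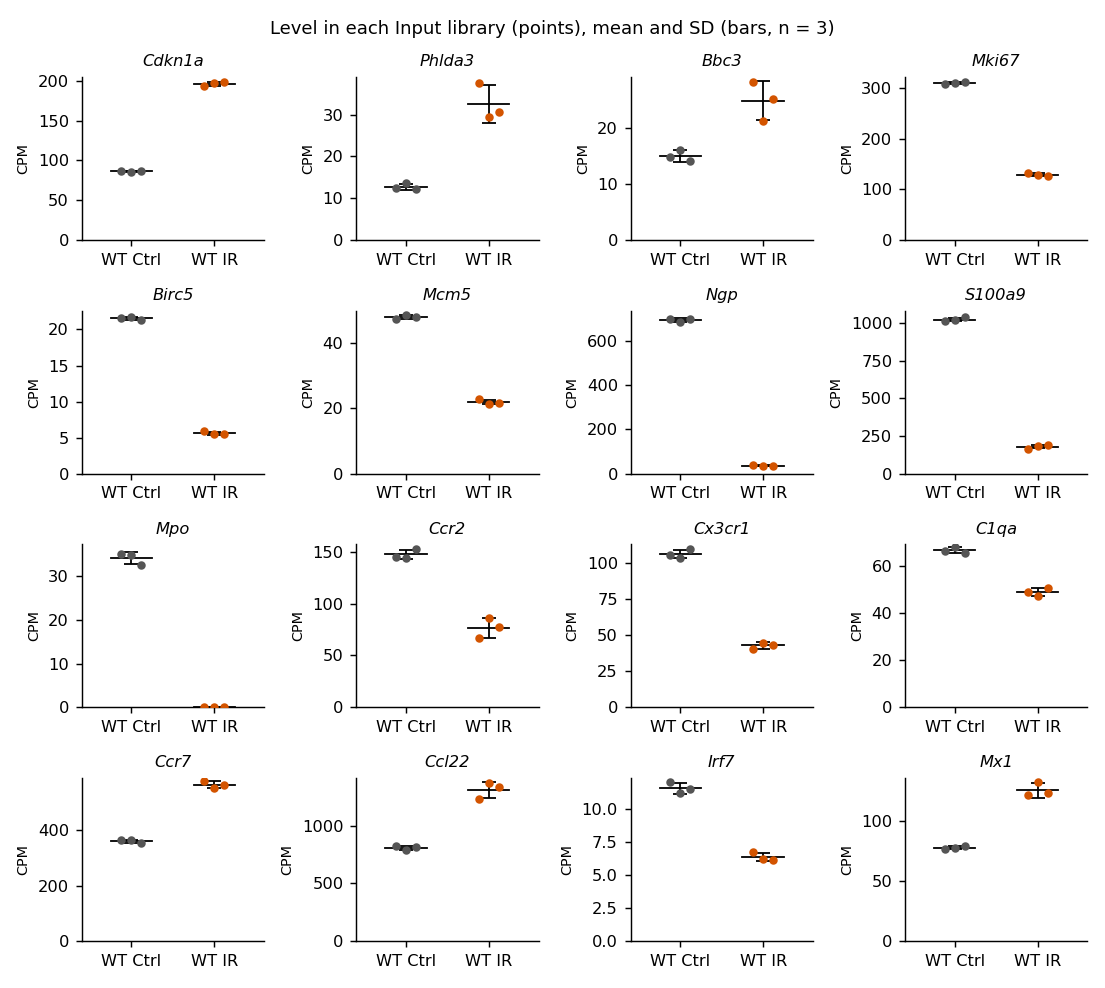
Level in CPM (vertical axis, scale differing between panels) of 16 genes in the 3 WT Ctrl and 3 WT IR Inputs, with points for libraries and bars for mean ± SD (n = 3). The groups do not overlap in any panel. Among all 15357 tested genes the 3 IR libraries lay above the 3 Ctrl libraries in 2957 and below them in 3330. Cdkn1a lies higher in every IR library, Birc5 lower, Ngp and Mpo fall close to zero, and Irf7 and Mx1, both interferon-stimulated, go in opposite directions.

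Interferon-stimulated genes were more often lower than higher, where 14.3% of all tested genes fell and 12.6% rose. Of 43 listed genes, all tested, 23 fell and 3 rose, with a median of −0.36. Irf7, the factor that amplifies interferon production, stood at 12.01, 11.2 and 11.5 CPM in WT Ctrl and 6.72, 6.2 and 6.14 in WT IR, a log2 change of −0.86 (SE 0.08, edgeR adjusted p 8.08e-06). The antiviral genes Isg15 and Ifit3 fell, with changes of −0.94 (SE 0.17) and −0.91 (SE 0.14), and Cxcl10, a chemokine for T cells, fell from 2.29, 2.41 and 2.11 CPM to 0.937, 1.15 and 0.854, a change of −1.21 (SE 0.19, edgeR adjusted p 3.53e-04). The exceptions were Mx1, a GTPase against influenza viruses that stood at 76.8, 77.2 and 79.0 CPM in WT Ctrl and 121, 133 and 123 in WT IR and rose by 0.69 (SE 0.05, edgeR adjusted p 3.79e-07), Herc6, which rose by 0.50 (SE 0.08), and Mx2, whose call ended without Ctrl replicate 1 (adjusted p 0.133), Ctrl replicate 3 (0.118) or IR replicate 3 (0.126). Transducers of the interferon signal did not pass, with values of 0.03 for Stat2 and −0.07 for Irf9. Of 19 genes of nucleic acid sensing 6 fell, 10 without IR replicate 1, and none rose. Those that fell included Ddx58 (RIG-I), at −0.36 (SE 0.07), and Ifi204, at −0.41 (SE 0.06).

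An ISRE (GAAANNGAAA, either strand) was found in 19 of 32 promoters of the interferon-stimulated list (59.4%), against 3.25% of promoters of tested genes and 3.49% of all. Shown 5′ to 3′, with the ISRE in capitals, are promoters of 2 of the largest falls, Ifit1bl1 (chr19:34601919-34602218 on the minus strand, the first of 2 listed starts), which fell by 1.34 (SE 0.20), and Cxcl10 (chr5:92348840-92349139 on the minus strand).
Ifit1bl1: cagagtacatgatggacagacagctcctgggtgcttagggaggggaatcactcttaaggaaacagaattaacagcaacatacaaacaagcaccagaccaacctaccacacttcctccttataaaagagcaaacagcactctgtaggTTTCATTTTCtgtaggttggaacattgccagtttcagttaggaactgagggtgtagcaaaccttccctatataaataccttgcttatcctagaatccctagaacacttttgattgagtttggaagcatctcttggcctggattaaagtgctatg
Cxcl10: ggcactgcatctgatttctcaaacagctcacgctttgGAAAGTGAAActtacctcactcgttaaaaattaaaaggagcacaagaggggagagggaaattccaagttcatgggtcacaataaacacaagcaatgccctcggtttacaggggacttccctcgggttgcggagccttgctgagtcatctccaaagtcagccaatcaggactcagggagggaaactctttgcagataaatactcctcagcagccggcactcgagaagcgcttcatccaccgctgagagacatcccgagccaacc

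Genes of antigen presentation moved by small amounts. Over all tested genes 14.3% fell and 12.6% rose. Of 21 class I genes 2 fell and 7 rose, most of all H2-Q6 (0.71, SE 0.05) and H2-Q7 (0.63, SE 0.06), close copies that share reads, while the classical class I gene H2-D1 gave 0.04 and did not pass. The number of class I genes lower was 0 without Ctrl replicate 1 or 3, 1 without Ctrl replicate 2, 4 without IR replicate 1, 1 without IR replicate 2 and 0 without IR replicate 3. Of 12 class II genes 4 fell and 2 rose. H2-DMb1 and H2-DMa, which load peptide, fell, with changes of −0.56 (SE 0.05) and −0.39 (SE 0.05), and H2-Ab1, the beta chain of I-A, fell by 0.30 (SE 0.04). The number of class II genes higher was 0 without Ctrl replicate 1, 1 without Ctrl replicate 2 or 3 and 0 without IR replicate 3.

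Most CXC chemokines rose, where 12.6% of all tested genes rose and 14.3% fell. Of 9 tested genes 7 rose, with a median of 0.50, Cxcl10 fell and Cxcl14 gave 0.08 (SE 0.09, edgeR adjusted p 0.6) and did not pass. Cxcl3, a ligand of the neutrophil receptor Cxcr2, stood at 193, 207 and 197 CPM in WT Ctrl and 416, 364 and 383 in WT IR, a rise of 0.96 (SE 0.05, edgeR adjusted p 4.33e-08). Other Cxcr2 ligands rose too, Cxcl5 by 0.98 (SE 0.09), Cxcl1 by 0.74 (SE 0.07) and Cxcl2 by 0.50 (SE 0.05), in the libraries where Cxcr2 itself fell by 1.71 (SE 0.08). Of 10 CC chemokines 4 rose and 3 fell. Beside Ccl22, its relative Ccl17 rose by 0.50 (SE 0.07) and Ccl5, a chemokine for T cells, by 0.60 (SE 0.06), and Ccl2, the ligand of Ccr2, fell from 4.27, 4.47 and 3.79 CPM to 3.04, 2.62 and 2.52, a change of −0.62 (SE 0.13), while Ccl4 fell by 0.54 (SE 0.11).

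Cytokine genes moved in both directions, 5 of 18 tested higher and 4 lower, where 12.6% of all tested genes rose and 14.3% fell. Il12b, the p40 chain of interleukin-12, stood at 49.97, 49.5 and 51.4 CPM in WT Ctrl and 86.2, 87.1 and 81.7 in WT IR, a rise of 0.76 (SE 0.05, edgeR adjusted p 1.67e-07). Il1a rose by 0.68 (SE 0.07) and Lif by 1.21 (SE 0.12), while Il16 fell by 1.17 (SE 0.06) and Tnfsf13b, the B cell survival factor BAFF, fell by 1.88 (SE 0.21). Tnf (0.00) and Il1b (−0.02) did not pass and their groups overlapped. Of 26 suppressive effectors 9 rose and 6 fell. Cd274 (PD-L1) stood at 163, 163 and 163 CPM in WT Ctrl and 199.6, 243 and 226 in WT IR and rose by 0.45 (SE 0.06, edgeR adjusted p 1.24e-04), Ptges, a prostaglandin E synthase, rose by 0.43 (SE 0.06) and Il4ra by 0.36 (SE 0.04). Nt5e (CD73), which makes adenosine, fell by 1.22 (SE 0.16), Vsir (VISTA) fell by 0.49 (SE 0.04) and Tgfb1 fell by 0.21 (SE 0.04). Il10 was at 0.398, 0.311 and 0.396 CPM in WT Ctrl and 0.184, 0.0446 and 0.275 in WT IR, levels near the lower limit, and its value of −1.12 (SE 0.54, edgeR adjusted p 0.154) did not pass.

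Among NF-kB genes the subunits leaned upward. Of 10 subunit and kinase genes 6 rose and 1 fell, and the number higher was 3 without Ctrl replicate 1, 2 or 3, the number lower 3 without IR replicate 1. Rel stood at 148, 147 and 149 CPM in WT Ctrl and 207, 238 and 221 in WT IR and rose by 0.58 (SE 0.05, edgeR adjusted p 3.11e-06), Nfkb2 and Relb, of the noncanonical branch, rose by 0.25 (SE 0.04) and 0.24 (SE 0.05), and the kinase gene Ikbke fell by 0.34 (SE 0.04). Nfkb1 gave −0.09 (SE 0.04, edgeR adjusted p 0.0775), which passed without IR replicate 1 (adjusted p 0.0124) and with all 12 Inputs in the fit (0.0249). Rela gave 0.03 (SE 0.05, edgeR adjusted p 0.708). Of 20 inhibitors and feedback genes 5 fell and 2 rose, where 14.3% of all tested genes fell and 12.6% rose. The number lower was 3 without Ctrl replicate 1 or 3, 9 without IR replicate 1 and 2 without IR replicate 3. The number higher was 4 without IR replicate 1. Tnip3 fell by 0.32 (SE 0.04), Nfkbib rose by 0.40 (SE 0.05) and Socs1, a feedback inhibitor of cytokine signals, by 0.58 (SE 0.08). Nfkbia, the main inhibitor, gave 0.06 and its groups overlapped. Of 24 immediate early genes 8 fell and 5 rose, with falls of Nr4a1 (−1.18, SE 0.10), Egr3 (−1.25, SE 0.17) and Klf2 (−0.99, SE 0.08) and a rise of Nr4a3 (0.61, SE 0.04). The number lower was 5 without Ctrl replicate 3.

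Metabolic lists moved by small amounts. Over all tested genes 14.3% fell and 12.6% rose. Of 23 genes of cholesterol synthesis 14 fell and 1 rose (median −0.23), and the number lower was 9 without Ctrl replicate 1 or 3 and 8 without Ctrl replicate 2. Srebf2, the factor that drives this pathway, stood at 217, 215 and 214 CPM in WT Ctrl and 174, 161 and 163 in WT IR and fell by 0.38 (SE 0.04, edgeR adjusted p 2.68e-05), while Idi1 rose by 0.34 (SE 0.05). Of 33 genes of glycolysis and hypoxia 14 fell and 4 rose. Slc2a3, the glucose transporter GLUT3, stood at 23.9, 26.2 and 26.1 CPM in WT Ctrl and 7.53, 7.21 and 6.79 in WT IR and fell by 1.82 (SE 0.07, edgeR adjusted p 4.82e-09), whereas Pfkfb3, which speeds glycolysis, rose by 0.54 (SE 0.04) and Ndrg1 by 0.56 (SE 0.06). Of 22 genes of lipid handling 7 fell, among them Pparg (−0.90, SE 0.07) and Nr1h3 (LXR alpha, −0.47, SE 0.05), and 5 rose, 3 without Ctrl replicate 1 or 2 and 3 without IR replicate 3. Abca1, a cholesterol exporter, rose by 0.46 (SE 0.03).

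Several RNAs of the mitochondrial genome rose, while most nuclear respiratory chain genes were not called. Of 15 mitochondrial genes 8 rose (median 0.31), among them the ribosomal RNAs mt-Rnr1 (0.82, SE 0.09) and mt-Rnr2 (0.53, SE 0.03), and mt-Nd6, the gene of the light strand, rose by 0.54 (SE 0.05). The share of mitochondrial counts in each library, given above, moved with the groups, and its part in these rises was not tested. Of 69 nuclear genes 15 fell and 1 rose (median −0.09), where 14.3% of all tested genes fell and 12.6% rose. The number lower was 7 without Ctrl replicate 1, 2 or 3, 36 without IR replicate 1 and 8 without IR replicate 3, and the number higher 0 without Ctrl replicate 1 and 2 without IR replicate 1.

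Most complement genes were lower, 9 of 14 tested against 1 higher, the latter 0 without Ctrl replicate 1, 2 or 3 and 0 without IR replicate 2 or 3. For this and the next lists, 14.3% of all tested genes were lower and 12.6% higher. C3, the central component, stood at 1436, 1450.2 and 1432 CPM in WT Ctrl and 1041, 997 and 981 in WT IR and fell by 0.52 (SE 0.03, edgeR adjusted p 3.62e-07), C5ar2 fell by 0.71 (SE 0.10) and Cd55, which limits complement on the cell, fell too. Matrix genes were more often higher, 11 of 22 against 3 lower, the latter 6 without IR replicate 1. Mmp2, a gelatinase, stood at 29.2, 29.1 and 27.3 CPM in WT Ctrl and 48.8, 47.6 and 49.0 in WT IR and rose by 0.76 (SE 0.05, edgeR adjusted p 4.19e-07), Mmp13 rose by 0.55 (SE 0.07) and Thbs1 (thrombospondin 1) by 0.34 (SE 0.03), while Mmp9, which neutrophils store, fell. Of 22 toll-like receptor genes and adaptors 7 fell and 1 rose, with −0.36 (SE 0.05) for the adaptor Myd88, −0.34 (SE 0.05) for Cd14, the coreceptor for endotoxin, and a rise of 0.33 (SE 0.07) for Traf6. The number lower there was 4 without Ctrl replicate 2 or 3 and 4 without IR replicate 3, and the number higher 3 without IR replicate 1. Of 20 phagocytosis genes 7 rose, 4 without Ctrl replicate 2, and 5 fell. Mfge8 and Gas6, bridges to dying cells, rose by 0.59 (SE 0.05) and 0.59 (SE 0.08), and Fcgr1, the high-affinity IgG receptor, fell by 0.67 (SE 0.09).

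The remaining lists had few calls or were split, where 14.3% of all tested genes were lower and 12.6% higher. Lysosome genes were 4 lower and 7 higher of 30, iron and haem genes 3 and 4 of 19, and heat shock genes 5 and 2 of 17. With 1 library left out these counts moved. The lysosome genes lower were 2 without Ctrl replicate 1 or 3 and 8 without IR replicate 1, and those higher 3 without Ctrl replicate 1, 2 or 3 and 3 without IR replicate 3. The iron and haem genes higher were 2 without Ctrl replicate 2 or 3, 7 without IR replicate 1 and 2 without IR replicate 3, and the heat shock genes lower 3 without Ctrl replicate 1, 2 or 3 and 3 without IR replicate 3. Interferon-gamma-inducible GTPases were 4 lower and 2 higher of 16, and chemokine receptors 3 and 2 of 10, the latter 1 without Ctrl replicate 1, 2 or 3 and 1 without IR replicate 2 or 3. Markers of cells that the selection should leave out were mostly too low to test. They gave 1 lower and 2 higher of 6 tested of 14 for B and plasma cells (the former 2 without IR replicate 2), 1 and 0 of 6 of 15 for endothelium, and 3 and 2 of 6 of 16 for fibroblasts. Pecam1, which marks endothelium and some myeloid cells, fell by 1.49 (SE 0.19), and the immunoglobulin gene Ighm fell by 1.33 (SE 0.13).

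Genes of the m6A machinery moved by small amounts, in shares near those of all tested genes (14.3% lower and 12.6% higher). Of 18 genes 2 fell and 3 rose, the latter 1 without Ctrl replicate 1 or 2, 6 without IR replicate 1 and 0 without IR replicate 3. Those that fell were the readers Igf2bp2, at −0.42 (SE 0.06), and Hnrnpa2b1, at −0.29 (SE 0.03). Ythdf2, the reader that leads m6A-marked RNA to decay and the gene floxed in these mice, stood at 94.5, 96.0 and 96.9 CPM in WT Ctrl and 103, 103 and 105 in WT IR. Its 3 IR libraries lay just above the 3 Ctrl libraries, as did those of 2957 of the 15357 genes tested. The value of 0.12 for Ythdf2 (SE 0.04, edgeR adjusted p 0.0537) did not pass. It passed without IR replicate 1 (adjusted p 0.0204) or 2 (0.0413), in DESeq2 (0.037), with RLE size factors (0.0439) and with a minimum of 50 counts (0.0255). With all 12 Inputs in the fit it passed too (edgeR adjusted p 0.017). The methyltransferase gene Mettl14 gave −0.08 and the demethylase gene Fto −0.07, and neither passed.

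Whether the change in WT differed from that in the Inputs labelled cKO was tested as an interaction over the 12 Inputs. It was called for 30.2% of the genes tested there, and irradiation alone was called for 45.6% in the Inputs labelled cKO. Scaled to total counts, Ythdf2 stood at 175 to 186 CPM in the cKO Ctrl Inputs and at 222 to 234 in the cKO IR Inputs, above the WT Inputs. Lyz2 stood at 299 to 306 and 409 to 420.2 CPM, far below the WT Inputs. The deletion and other differences between these cells cannot be told apart. Cdkn1a changed by 1.19 in WT and 1.06 in cKO, an interaction of −0.13 (SE 0.04, edgeR adjusted p 0.038), and Mdm2 by 0.55 and 0.62, an interaction of 0.08 (SE 0.05, edgeR adjusted p 0.296). The p53 list had medians of 0.47 and 0.48, with 13 of 42 genes called for the interaction, a share near that of all genes.

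Larger shares were called in other lists. Of 40 mitosis genes 31 were called, and the median was −1.49 in WT and −1.06 in cKO. Birc5 changed by −1.94 and −0.79, an interaction of 1.15 (SE 0.09, edgeR adjusted p 2.00e-08). Of 43 interferon-stimulated genes 24 were called, and the cKO median was 0.003, with 11 lower and 12 higher. Irf7 changed by −0.86 and −0.16, an interaction of 0.70 (SE 0.08, edgeR adjusted p 2.70e-06). The nuclear respiratory chain genes had the largest share of these lists, since 62 of 69 were called, with a cKO median of 0.37 and 57 higher. RNAs of the mitochondrial genome had a cKO median of −0.77, with 12 lower, and 12 of 15 were called. In the neutrophil list 17 of 30 were called, with a cKO median of −1.08. Ngp changed by −4.26 in WT and −4.20 in cKO, an interaction of 0.06 (SE 0.06, edgeR adjusted p 0.517).

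**Figure D4:**
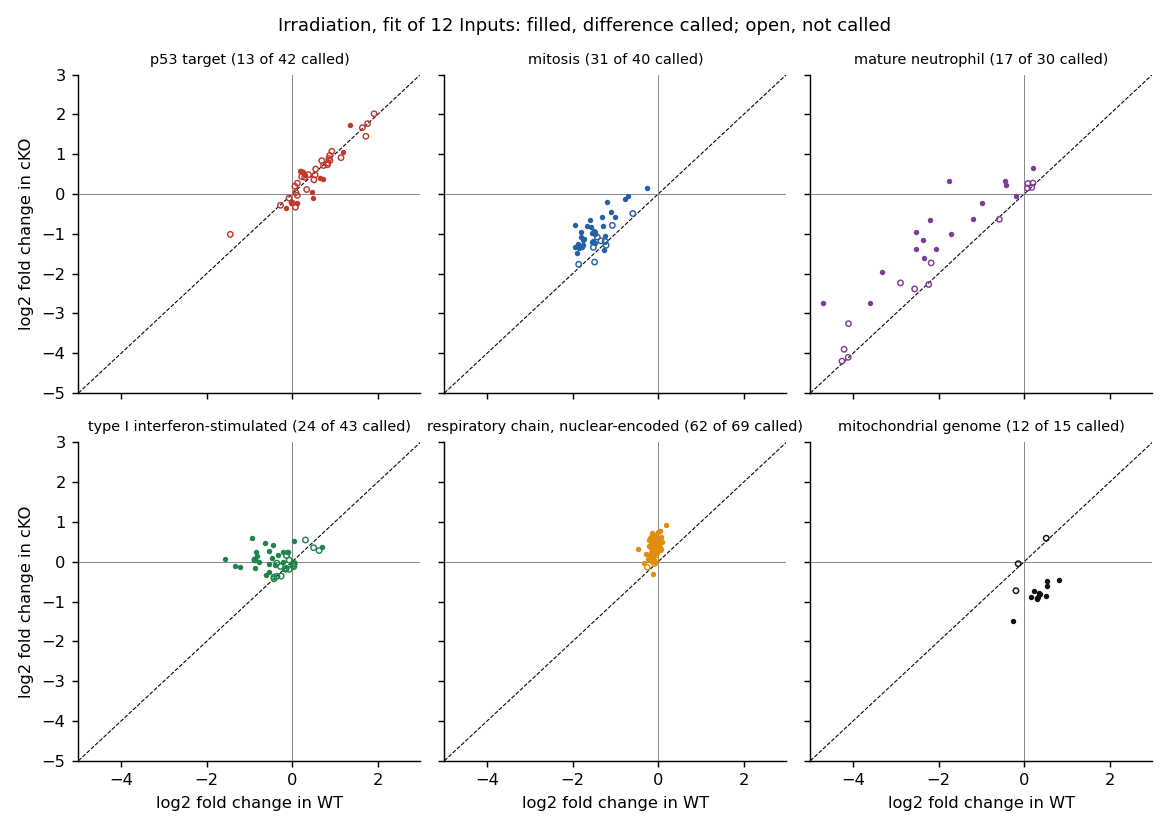
Log2 fold change after irradiation in the Inputs labelled cKO (vertical axis) against that in WT (horizontal axis), both from the fit over 12 Inputs, for the members of 6 gene lists, 1 panel each. Filled points passed the test of the difference and the dashed line marks equal change. Mitosis genes lie mostly above the line, and nuclear respiratory chain genes lie above zero in cKO and near zero in WT.

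The m6A antibody libraries (IP) of the same design, which were not tested here, gave like orders for some of these genes and not for others. Cdkn1a stood at 149 to 150.1 CPM in the WT Ctrl IPs and at 261 to 268 in the WT IR IPs, and at 132 to 135 and 271 to 283 in the cKO IPs. Ythdf2, whose Input rise was not called, lay lower in the WT IR IPs (162 to 182 CPM) than in the WT Ctrl IPs (219 to 228). Ngp fell less than in the Inputs, from 83.5 to 85.7 CPM in the WT Ctrl IPs to 45.3 to 45.4 in the WT IR IPs. Lyz2 in the IR IPs went against the genotype labels, but each IR IP group, under either label, lay above each Ctrl IP group for Cdkn1a. Hbb-bs had 0 counts in all IP libraries, and 0 in the cKO IR Inputs, unlike the WT IR Inputs.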

How the data were processed

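MeRIP-seq (m6A antibody RNA sequencing) gave an Input and an IP library per sample. The 6 WT Inputs were analysed here, the 6 Inputs labelled cKO only for the difference between genotypes and for an alternative fit, and the 12 IPs only as levels. The authors used Trimmomatic 0.39 for trimming and HISAT for alignment to mm10, counted reads per gene with HTSeq, and deposited these raw counts with no normalization and replicates not pooled. SAMtools, MACS2 and bedtools 2.26.0 are also in the submitters' processing notes, and the HTSeq version is not given in the sources used here. Counting is per gene and unique, so that reads of near-identical copies can be lost, and the HTSeq summary lines were left out of totals and tests. In the 6 WT Inputs, reads in no gene took 5.21 to 6.80% and reads ambiguous between genes 2.27 to 2.46% of the reads of both kinds and of genes together, and reads that aligned to several places were not counted. Of 54446 identifiers 37 had no match in GENCODE vM21 and kept their identifier. Columns left unused numbered 0.

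Counts were fitted with edgeR 4.0.16 in R 4.3.3 (quasi-likelihood test, TMM scaling, Benjamini-Hochberg adjusted p under 0.05, at least 10 counts in at least 3 libraries). CPM of single genes in the WT Inputs were computed with the TMM library sizes, unless said to be scaled to total counts. Sums over gene lists, and levels in the cKO Inputs and the IPs, were scaled to total counts without TMM factors. SEs are those of the fitted log2 fold change. Intervals for ratios of summed counts are exact 95% intervals that cover counting error only, and a group at 0 was set to a floor of 3 counts. Alternatives were DESeq2 1.42.0, RLE size factors, other count minimums, all 12 Inputs in the fit, the replicate number as a block, no mitochondrial genes, and each library left out in turn. The scripts were tested on simulated data with known changes. No pair of libraries of the same group agreed within sampling noise (chi-square per degree of freedom 4.41 to 38.2). Each library was counted once, but these values cannot show that libraries of a group are independent replicates. Named genes were the 12 largest rises and 12 largest falls among called genes whose groups did not overlap and whose higher group was at least 5 CPM, of each gene list up to 4 called genes in each direction with members that define a cell type or the role described, genes the study discusses, and Ythdf2, Lyz2 and Itgam. The genes compared and the lists were chosen with earlier results of these data known, and some genes are not reported here. Promoters are RefSeq sequences of GRCm38.p6 from 250 bases before to 50 after the start.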

Additional observations from a re-analysis of the deposited data

Results flagged for a closer look

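Of 53 named genes tested for a difference in the irradiation effect between genotypes, 26 passed (edgeR interaction test over the 12 Inputs, adjusted p under 0.05). The same test was called for 30.2% of all genes tested over those Inputs. Many of the 53 were named for large changes in WT, so their share is no separate result about them. Values below are the log2 effect in the Inputs labelled cKO minus that in WT. Among genes with 0 or few counts in 1 group, whose fitted values depend on the prior count, the difference was Hbb-bs −14.16, Hba-a1 −10.05, Elane 5.08, Epx 5.05 and Mpo 2.39. The globin genes, higher in the WT IR Inputs, had no such rise in the cKO IR Inputs. The granule genes fell to or near 0 in both genotypes, from a higher Ctrl level in WT. Scaled to total counts, Elane stood at 9.24 to 11.3 CPM in WT Ctrl and 2.50 to 3.15 in cKO Ctrl. Mpo stood at 32.88 to 35.45 and 10.77 to 11.53. The granulocyte genes of this paragraph were named for their falls in WT, whose libraries enter the interaction. A further fall in WT is therefore no separate result. Other granulocyte genes gave Prg2 1.40 (−7.20 in WT and −5.79 in cKO), Fcnb 1.62 (−6.31 in WT and −4.69 in cKO) and Prss34 2.13 (−5.65 in WT and −3.52 in cKO). The gene 4930438A08Rik gave 2.27 (−4.12 in WT and −1.85 in cKO). 

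Among p53 targets the difference was Phlda3 0.38 (1.36 in WT and 1.74 in cKO) and Cdkn1a −0.13 (1.19 in WT and 1.06 in cKO), and for the mitosis gene Birc5 it was 1.15. Interferon-stimulated genes lay higher in cKO relative to WT, with Irf7 0.70 (−0.86 in WT and −0.16 in cKO), Cmpk2 0.94 (−0.81 in WT and 0.13 in cKO) and Rsad2 0.35 (−0.11 in WT and 0.25 in cKO). Of genes linked to monocytes and their chemokines, the difference was Ccl2 1.03 (−0.61 in WT and 0.42 in cKO), Cxcl16 0.20 (0.20 in WT and 0.40 in cKO), Ly6c2 0.46 (−0.65 in WT and −0.19 in cKO) and Hopx 0.36 (−0.06 in WT and 0.31 in cKO), whereas Itgam gave −0.32 (0.09 in WT and −0.23 in cKO). The angiogenic factor Vegfa gave −0.32 (−0.03 in WT and −0.36 in cKO), and the NF-kB subunits gave Nfkb1 −0.26 (−0.09 in WT and −0.35 in cKO) and Rela −0.30 (0.03 in WT and −0.27 in cKO). For Inhba, the gene of the activin beta A chain, it was 0.32 (0.41 in WT and 0.73 in cKO), for Tnfaip8l2 0.28 (−0.27 in WT and 0.01 in cKO) and for Ythdf2 itself 0.21 (0.12 in WT and 0.32 in cKO). Adjusted p-values of the 26 ran from 2.00e-08 (Birc5) to 0.0486 (Epx).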

How the results depend on the processing

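The number of genes called, 4120, was 4125 with RLE size factors, 4373 in DESeq2, 4515 without a count minimum, 4072 with at least 50 counts, 5100 with 12 Inputs in the fit and 4102 without mitochondrial genes. Leaving out each library in turn gave 2927 to 5757 genes, 1556 to 3139 lower, 1357 to 2618 higher and 556 to 715 changed at least 2-fold, with the highest values without WT IR replicate 1. For the difference between genotypes, 4861 genes were called, and leaving out each of 12 libraries gave 4280 to 5538. Of the genes called, 46.9% were higher, 48.4% with RLE size factors, where the median of all genes was 0.008.

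The replicate number as a block gave 3484 genes, and 4459 for the difference between genotypes. Libraries with the same number did not deviate together (correlations of −0.042, −0.051 and −0.016), so that the numbers were not taken as pairs.

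Of 2739 recomputed values of named genes, 2685 kept their direction and their side of the threshold, 24 lost the call, 21 gained it and 9 changed sign. None of those 9 had passed the test. With each library left out in turn these values were −0.015 to 0.057 for Rela, −0.045 to 0.097 for Apoe, −0.091 to 0.010 for Atm, −0.049 to 0.0076 for Il1b, −0.017 to 0.036 for Lyz2 and −0.023 to 0.022 for Tnf. Of 1274 recomputed counts of calls in gene lists, 1135 stayed within 1.5 times. The cause of these shifts was not tested.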
